A study of Mus musculus with 30 samples.

Results

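Hearts of wild type (WT) mice aged 8 months were compared with hearts of WT mice aged 22 months. These mice were the controls of the HdhQ150 line, a knock-in model of Huntington's disease, and carried no mutant huntingtin allele. The columns of the count table that carry the WT label with 8 months (4 libraries) or 22 months (3 libraries) were taken, which is 7 of the 30 libraries of the series. The labels give the strain of all mice as (CBA x C57BL/6) F1, and the tissue as whole heart, from which total RNA was taken without separating atria from ventricles. The study compared each Huntington's model with WT mice of its own age. The ages within WT, compared here, show how the control heart itself differed between mid-life and old age. The other WT hearts, 4 at 4 weeks and 4 at 15 weeks, and the HdhQ150 hearts, 3 at 8 months and 4 at 22 months, were used only to place the values. The sample titles give the older ages in weeks, whereas the age labels and the column headings give months, which are used here.

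The adult heart is built mainly from cardiomyocytes, which rarely divide and which hold contractile filaments of myosin and actin, a calcium release system and many mitochondria. In between lie fibroblasts that make the collagen matrix, endothelial cells, smooth muscle cells and pericytes of the vessels, macrophages, nerve fibres and, around the great vessels, fat. Ageing hearts are known for stiffer matrix, larger cardiomyocytes, altered conduction and more immune cells. In RNA of whole hearts, fewer cells of a type and less RNA per cell cannot be told apart.

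At 8 months the libraries held 37495970 to 52421753 counts, and at 22 months 39674011 to 42139678. Mice are named by the numbers in the headings. Mouse 27 is headed female but had Y-linked transcripts, mouse 28 is headed male but had none, and Y-linked transcripts were found in 2 of the 4 libraries of 8 months. Headings and transcripts also disagreed in WT mice 1 and 2 of 15 weeks, headed female with such transcripts. HdhQ150 mice 31 and 32 of 22 months were headed male without them. At 15 weeks all WT hearts had Y-linked transcripts, at 4 weeks only mice 10 and 11. No HdhQ150 heart of 22 months had them, whereas mice 23 and 24 of 8 months did. Sex was thus uneven between the ages in the comparisons of 15 with 4 weeks and of HdhQ150 hearts. The p-values measure the spread between the libraries compared. Markers of cardiomyocytes summed to 44060 to 48730 CPM at 8 months and to 53160 to 55990 CPM at 22 months, so that the tissue matched its label. Of 13 airway markers 2 passed the filter for low counts and neither was called. Single libraries of both ages held airway transcripts, since Scgb1a1, a secretoglobin of airway cells, reached 18.7 CPM in mouse 26 against at most 0.247 CPM in the others, and Sftpc, a lung surfactant protein, 3.53 CPM in mouse 20 against at most 0.783 CPM (unscaled CPM). Their part in the results was not tested. Levels are given throughout as CPM, the count of a gene per 1e+06 counts of its library after scaling by the TMM factors of edgeR.

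Many genes differed between the ages, and long and short transcripts did so in opposite directions. Of 15223 genes tested by edgeR as counted, 3556 (23.4%) were called, which needed an adjusted p below 0.1 and a change of 1.3-fold or more. Of these, 1309 (8.6%) were higher and 2247 (14.8%) were lower at 22 months. The median exon length of the genes called lower was 4611 bases, and that of the genes called higher was 1465 bases, against 2483 bases over all genes tested. Among the shortest 20% of genes, up to 1370 bases, the median log2 fold change was 0.24, with 593 genes called higher and 147 lower. Among the longest 20%, from 4149 bases, it was -0.35, with 46 called higher and 1306 lower.

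The trend with length was a property of each library. The slope of log2 CPM on log2 exon length, relative to the mean of the 7 libraries, was 0.0749, 0.0763, 0.0821 and 0.0929 in mice 17, 18, 19 and 20 at 8 months. It was -0.161, -0.117 and -0.0344 in mice 26, 27 and 28 at 22 months. The 2 ages did not overlap, and mouse 28 lay nearest to the younger mice. The mean slope was 0.0816 ± 0.00818 (SD, n = 4) at 8 months and -0.104 ± 0.0642 (SD, n = 3) at 22 months, a difference of -0.185 (two-sided exact permutation test, p = 0.0571, the smallest p that 3 against 4 libraries allow). Slopes ran from 0.123 to 0.204 in WT hearts of 4 weeks, from 0.0316 to 0.103 at 15 weeks, from 0.0824 to 0.13 in HdhQ150 hearts of 8 months and from -0.0432 to 0.0297 in those of 22 months. After length was taken into account, log2 CPM changed by -0.0657 ± 0.0352 (SD, n = 4) for each 10 percentage points of GC content at 8 months and by 0.0883 ± 0.0137 (SD, n = 3) at 22 months (two-sided exact permutation test, p = 0.0571). A difference between the ages in length or GC content of the RNA and a difference in how the libraries were made cannot be told apart in this design.

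**Figure D1:**
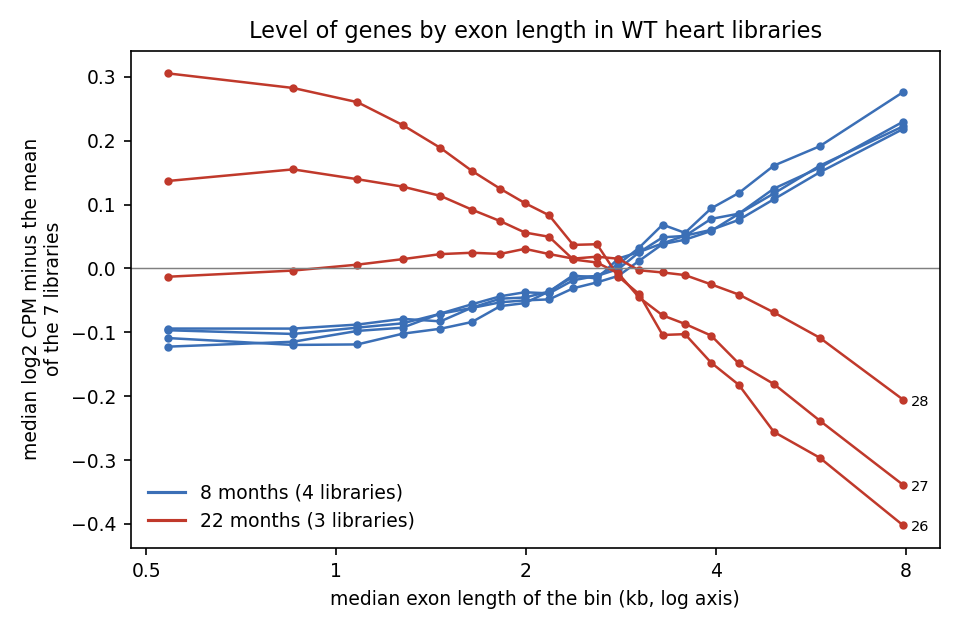
Median log2 CPM of genes, relative to the mean of the 7 WT libraries, in 20 bins of exon length (x axis, kb on a log scale); each line is 1 library, blue for 8 months and red for 22 months, with the numbers of the older mice at the right. The 4 blue lines rise together with slopes of 0.0749 to 0.0929, and the 3 red lines fall with slopes of -0.161, -0.117 and -0.0344.

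With the length trend of each library removed by a smooth curve, 1955 genes (12.8%) were called, 915 (6.01%) higher and 1040 (6.83%) lower at 22 months. The medians of 5 equal groups by length then lay between 0.01 and 0.04 on the log2 scale. In both fits, 1523 genes were called in the same direction, 586 (3.85%) higher and 937 (6.16%) lower, and 0 genes were called in opposite directions. The genes called only as counted numbered 2033. Titin shows the difference between the fits. Ttn, the giant spring protein of the sarcomere with an estimated exon length among the longest, was at 3804, 3672, 3464 and 3433 CPM in mice 17 to 20 and at 1593, 1697 and 1894 CPM in mice 26 to 28. Its log2 fold change was -1.06 as counted (adjusted p = 0.000103 by edgeR) and 0.22 with the trend removed, which was not called. Htt, the huntingtin gene, likewise went from -0.56, called lower, to 0.12, not called. Values below are given for both fits, and levels in CPM are always as counted.

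Genes called lower changed by larger steps than genes called higher. With the trend removed, the median size of the change was 0.79 on the log2 scale over the 1040 genes called lower and 0.61 over the 915 called higher. The fall was at least 8-fold in 37 genes and the rise in 15. Of the genes called with the trend removed, 987 of 1040 and 795 of 915 had libraries of the 2 ages that did not overlap, against 13.2% and 15.8% of all genes tested. Call and overlap rest on the same libraries, so that this follows largely from the call and is no support for it. The headings hold the letter L and a number, read here as the lane of the sequencer, which neither headings nor labels state. Read so, lanes 4 and 6 each held 1 library of either age. Mice 19 and 20 shared lane 1, and mouse 28 was the only WT heart compared here in lane 7. With the lane as a covariate 1262 genes were called without the trend, against 1955 with no covariate. The age effect in that fit rests on mice 17, 18, 26 and 27 alone. For a call lost there, an effect of the lane and the smaller number of informative libraries cannot be told apart.

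Hipk2 and Mdm4 had the smallest p among the genes that fell. Hipk2, a kinase that activates p53, was at 43.6, 35.3, 39.2 and 35.5 CPM in mice 17 to 20 and at 4.47, 5.64 and 6.69 CPM in mice 26 to 28. Its log2 fold change was -2.78 as counted and -2.33 (standard error 0.118, adjusted p = 2.08e-05 by edgeR) with the trend removed. Every older heart was thus far below every heart of 8 months. Mdm4, an inhibitor of p53, was at 17.3 to 20.01 CPM at 8 months and at 2.78, 3.87 and 3.81 CPM at 22 months, with a log2 fold change of -2.24 (standard error 0.113) without the trend. Tead1, the DNA-binding partner of the YAP coactivator, was at 71.2, 57.7, 69.7 and 71.8 CPM at 8 months and at 4.59, 9.48 and 9.84 CPM at 22 months, 8.47-fold higher at 8 months as counted.

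Cbl, a ubiquitin ligase that takes growth factor receptors out of use, was at 6.45, 5.77, 6.63 and 5.88 CPM at 8 months and at 0.252, 0.419 and 0.793 CPM at 22 months. Its log2 fold change of -3.34 without the trend was the largest fall among the genes named here. The others with the smallest p were Zfp871 and Zfp169, zinc finger genes, at -3.31 and -2.08, Foxn3, a forkhead repressor, at -2.21, and Xpo4, a nuclear export receptor, at -1.91. Atxn1, the gene of spinocerebellar ataxia type 1, was at -1.81 and Hmcn1, a matrix protein, at -1.48, and Xrn1, an exonuclease that degrades mRNA, was at -2.16. Kidins220, a scaffold of neurotrophin receptors, fell by 0.53 on the log2 scale. Chd9, a chromatin remodeller, passed as counted at -1.01, but at -0.34 without the trend it missed the fold limit.

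The low level of these genes at 22 months was not found at 22 months alone. Hipk2 was at 24.4 to 49.9 CPM in WT hearts of 4 weeks and at 2.64 to 6.31 CPM at 15 weeks. Tead1 was at 83.3 to 103 CPM at 4 weeks and at 7.4 to 25.0 CPM at 15 weeks, and Mdm4 at 18.7 to 23.2 CPM and at 3.54 to 7.94 CPM. These genes were thus high at 4 weeks and at 8 months and low at 15 weeks and at 22 months, and their level did not follow age. Malat1, a nuclear noncoding RNA chosen because of its values, was at 371 to 852 CPM at 4 weeks, at 128 to 237 CPM at 15 weeks, at 808 to 1359 CPM at 8 months and at 124 to 256 CPM at 22 months. Neat1, another nuclear noncoding RNA chosen along with it, was at 688 to 941 CPM at 8 months and at 708 to 1108 CPM at 22 months, and the ages overlapped.

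The comparison of WT hearts of 15 with 4 weeks, which shares no library with that of 22 with 8 months, called 484 of 15531 genes (3.12%) without the trend, 274 of them (1.76%) lower. Of the 937 genes called lower from 8 to 22 months in both fits, 897 were tested there and 137 (15.3%) were called lower from 4 to 15 weeks, and 1 was called higher. They made up 51.7% of the 265 genes called lower from 4 to 15 weeks that were tested in both comparisons. Of the 586 genes called higher, 548 were tested and 33 (6.02%) were called higher from 4 to 15 weeks, against 1.35% of all genes, and 5 were called lower. The pattern that separates 4 from 15 weeks and that which separates 8 from 22 months therefore shared members, more so among the genes that fell. Age and the handling of a group of animals cannot be told apart here, since the labels give no dates.

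**Figure D2:**
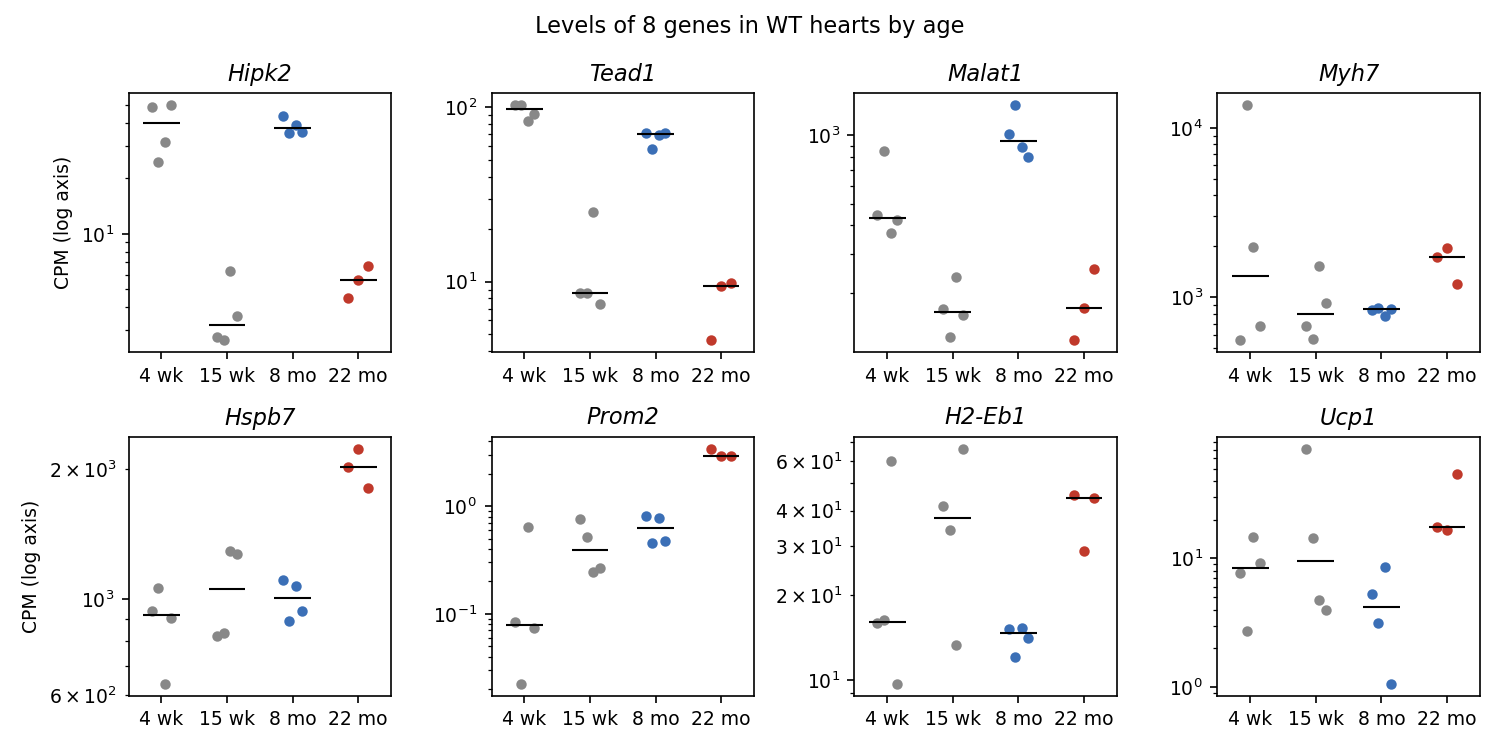
CPM (log axis) of 8 genes in each WT heart at 4 weeks, 15 weeks, 8 months (blue) and 22 months (red); points are libraries and black bars are group medians. Hipk2, Tead1 and Malat1 are high at 4 weeks and 8 months and low at 15 weeks and 22 months, whereas the 3 hearts of 22 months lie above all younger hearts for Hspb7 and Prom2.

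Noncoding genes were more often among those that fell. Of 237 antisense genes tested, 42 (17.7%) were called lower and 15 (6.33%) higher without the trend, and of 104 long intergenic noncoding genes 15 (14.4%) and 1 (0.962%). Among 13794 protein-coding genes, 804 (5.83%) were called lower and 829 (6.01%) higher. The counting is not stated to use strand, so that reads of an antisense gene and of its partner cannot be told apart. GC content moved with direction as well. Among the 20% of genes with the least GC, 356 were called lower and 76 higher without the length trend, and among the 20% with the most GC 71 were called lower and 305 higher. When the GC trend was removed in addition, 911 genes were called lower and 687 higher.

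Of the 586 genes called higher in both fits, 117 had all 3 hearts of 22 months above all 12 younger WT hearts. Values freed of the trend were used. Over all 15223 genes tested, 350 (2.3%) did so. The call itself favours genes above the hearts of 8 months, so that this share is no fair measure for the 117. The 3 older hearts were above all hearts of 8 months in 501 of the 586, and in 2403 of all genes. Hspb7, a small heat shock protein of the cardiomyocyte that binds filamin, belonged to the group of 117. It was at 1108, 891, 1067 and 939 CPM in mice 17 to 20 and at 2020, 2235 and 1810 CPM in mice 26 to 28. The highest younger heart, at 15 weeks, was at 1290 CPM. On the log2 scale it rose by 1.01 as counted and by 1.05 without the trend (adjusted p = 0.000682 by edgeR, standard error 0.109). Prom2, a membrane protein of cell protrusions, was at 0.453 to 0.803 CPM at 8 months and at 3.41, 2.93 and 2.90 CPM at 22 months, with log2 fold changes of 2.31 as counted and 2.57 without the trend. Nrgn, the calmodulin-binding protein neurogranin, had 2.50 ± 0.624 CPM at 8 months (SD, n = 4) and 9.64 ± 1.29 CPM at 22 months (SD, n = 3), and was 1.78 higher on the log2 scale without the trend.

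Tgfb2, a ligand of the transforming growth factor beta family, was at 6.41 to 7.02 CPM at 8 months and at 9.82, 10.1 and 10.3 CPM at 22 months, 0.73 on the log2 scale without the trend. Tmem252, a small membrane protein, was at 10.85 to 12.2 CPM and at 18.9, 17.04 and 18.5 CPM. Both were above all younger WT hearts. Other genes with the smallest p were not outside the younger range. Gm13610, a gene with no known role, was at 0 CPM in 3 hearts of 8 months and 0.128 CPM in the fourth, and at 3.28, 4.11 and 2.92 CPM at 22 months. It was also at 2.7 to 6.57 CPM at 15 weeks and at 0 to 0.0833 CPM at 4 weeks. Its log2 fold change of 6.12 without the trend rests on these few counts at 8 months.

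Ifi27, an interferon-induced mitochondrial protein, rose from 27.3 to 32.3 CPM to 67.1, 54.9 and 58.7 CPM, 0.83 on the log2 scale without the trend, but was at 38.0 to 166 CPM at 4 weeks. Grina, a glutamate receptor-associated protein, and the transcript 0610009E02Rik rose by 0.42 and 1.96 on the log2 scale. With the GC trend removed too, Grina was at 0.28, under the fold limit. Among long genes, Shroom3, an actin-binding protein, rose by 0.69, and Nfia, a transcription factor, rose by 0.55 without the trend but stood at -0.02 as counted, so that its call rests on the length trend.

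Several contractile genes were higher at 22 months. Over all genes, 8.6% were called higher and 14.8% lower as counted, and 6.01% higher and 6.83% lower without the trend. The counts of the lists below are to be read against these shares. Of 22 sarcomere genes tested, 8 (36.4%) were called higher and 0 lower without the trend. Their median log2 fold change was 0.27, against 0.03 over all genes. As counted, 8 (36.4%) were higher and 2 (9.09%) lower with a median of 0.37. The 2 lower were the long genes Ttn and Nebl, a nebulin-like filament protein. The summed level of the list, 65280 to 69750 CPM at 8 months, was 78800 to 85740 CPM at 22 months. Myh7, the slow beta myosin heavy chain of the foetal and stressed heart, was at 846, 864, 776 and 856 CPM at 8 months and at 1721, 1962 and 1205 CPM at 22 months. Its log2 fold change was 0.96 as counted and 1.38 (standard error 0.165, adjusted p = 0.00123 by edgeR) without the trend. The ages did not overlap, but at 4 weeks Myh7 ran from 557 to 13600 CPM. Myh6, the fast alpha chain that dominates the adult mouse heart, was at 20860 ± 1747 CPM (SD, n = 4) and 23790 ± 1461 CPM (SD, n = 3), 0.19 as counted and 0.59 without the trend, where it was called. Within lanes 4 and 6 alone its log2 fold change was 0.62 at an adjusted p of 0.103 by edgeR.

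Des, the intermediate filament desmin, was at 1196 to 1312 CPM at 8 months and at 1859, 2074 and 1583 CPM at 22 months, and rose by 0.56 as counted and 0.63 without the trend. Tcap, the titin cap, Csrp3, a stretch sensor of the Z-disc, Myom2, an M-band protein, and Actn2, the Z-disc alpha-actinin, were called without the trend at 0.48, 0.43, 0.59 and 0.44. Myom1, also of the M-band, was called at 0.41. With GC removed too, Tcap, Actn2 and Myom1 were at 0.34, 0.33 and 0.37, under the fold limit, and the call of Csrp3 was lost without any 1 of mice 17, 18, 19, 20 or 27. With the lane as a covariate Tcap was not called (adjusted p = 0.144 by edgeR). Leaving out mouse 26 also ended the call of Tcap, mouse 27 those of Actn2 and Myom1, and mouse 18 that of Myom1. Myl2, the ventricular regulatory light chain, had 5157 ± 368 CPM at 8 months (SD, n = 4) and 7709 ± 866 CPM at 22 months (SD, n = 3), 0.58 as counted, and missed the fold limit without the trend at 0.35.

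Of 17 foetal and hypertrophy genes, which the failing heart switches on, 3 (17.6%) were called higher and 1 (5.88%) lower without the trend. Besides Myh7 these were Ankrd1, a stress-responsive repressor, at 701 to 871 CPM and then 1556, 1504 and 1112 CPM (0.73), and Xirp1, an actin-binding repair protein, at 0.54. Vgll4, a cofactor that competes with YAP for TEAD factors, fell from 15.4 to 16.9 CPM to 9.29, 9.80 and 13.7 CPM, -0.63 on the log2 scale. The natriuretic peptide genes did not pass without the trend. Nppa was at 1202 to 1872 CPM and at 1557 to 2201 CPM, and Nppb at 0.27 without the trend (adjusted p = 0.307 by edgeR). Fhl2, S100a4 and Bdnf did not pass without the trend either, at -0.06, 0.23 and 0.25. Fhl1, a LIM protein, had 143, 489 and 159 CPM at 22 months, and its call as counted, which mouse 27 carries, was lost without any 1 of mice 17, 18, 19, 20 or 27.

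Of 18 calcium handling genes, 5 (27.8%) were called lower and 0 higher as counted, against 14.8% of all genes lower, and 2 (11.1%) lower and 0 higher without the trend, against 6.83%. The count without the trend is thus close to the share over all genes. These 2 were Slc8a1, the sodium-calcium exchanger, and Itpr1, a calcium release channel. Slc8a1 was at 91.2, 80.1, 93.3 and 80.2 CPM at 8 months and at 24.03, 32.3 and 48.3 CPM at 22 months, and its log2 fold change was -1.3 as counted and -1.26 (standard error 0.184) without the trend. Ryr2, the release channel of the sarcoplasmic reticulum, fell by 0.90 as counted but by 0.10 without the trend, which was not called, and Cacna1c, the L-type channel, fell by 0.60 as counted and had -0.11 without it. Of 18 ion channels and gap junction genes, 7 (38.9%) were lower as counted and 3 (16.7%) without the trend. Among them was Kcnd2, a voltage-gated potassium channel, which was at 17.45 to 21.5 CPM at 8 months and at 10.17, 8.3 and 12.6 CPM at 22 months, -0.54 on the log2 scale without the trend. Gja1, the main gap junction protein, was at 390 to 434 CPM and at 351, 250 and 345 CPM, and at -0.29 was not called.

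Fewer nuclear genes of energy metabolism were called without the length trend than as counted. Of 78 nuclear genes of oxidative phosphorylation, which are short (median exon length 671 bases), 9 (11.5%) were called higher as counted. Without the trend 2 (2.56%) were called higher, Ndufa10 and Ndufa11 of complex I. Both were lost without mouse 20 or 26, and Ndufa10 also without mouse 18 or 27. The count of 9 was 2 without mouse 26 and 22 without mouse 28. Of 59 cytosolic ribosomal protein genes (median 621 bases), 41 (69.5%) were called higher as counted, with a median of 0.41. Without the trend 0 were called higher by edgeR, with a median of 0.20. The 41 became 14 without mouse 26 and 54 without mouse 28, and the 0 became 4 without mouse 28. Without the trend 50 of the 59 had a higher level at an unadjusted p under 0.05, against 17.9% of all genes. Of 13 transcripts encoded by the mitochondrial genome, 3 (23.1%) were called lower and 0 higher as counted. Without the trend 4 (30.8%) were called lower and 0 higher, with a median of -0.25. mt-Nd5, a subunit of complex I, was at 15860, 10340, 15130 and 11580 CPM at 8 months and at 6578, 8429 and 9317 CPM at 22 months, -0.81 without the trend, but not called with the lane as a covariate (adjusted p = 0.12 by edgeR). mt-Nd4l and mt-Atp8 were at -1.02 and -0.67, and each overlaps a neighbouring gene, so that their reads may be shared. The fourth, mt-Atp6, was not called with the lane as a covariate or with GC removed too. The 13 genes together held 35.9% ± 2.45 (SD, n = 4) of all counts at 8 months and 33.9% ± 1.69 (SD, n = 3) at 22 months (two-sided exact permutation test, p = 0.286).

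In fatty acid oxidation 1 of 32 genes (3.12%) was called in each direction without the trend, under the shares of all genes. The gene that fell was Ppara, the nuclear receptor that drives the pathway. It was at 17.7, 18.5, 16.3 and 20.3 CPM at 8 months and at 3.58, 4.95 and 8.22 CPM at 22 months, -1.62 on the log2 scale (standard error 0.208, adjusted p = 0.00167 by edgeR), while Acot2, a thioesterase, was called higher at 0.45 and lost its call without any 1 of mice 18, 19, 20, 27 or 28 and with the lane as a covariate. Of 23 genes of glycolysis and glucose uptake, 3 were called higher and 0 lower without the trend. These were Hk1, the hexokinase isoform prominent in the foetal heart, at 0.58, Pfkl, the liver-type phosphofructokinase, at 0.54, and Eno1, the non-muscle enolase, at 0.52. Eno1 was at 85.6 to 99.8 CPM at 8 months and at 149, 132 and 140 CPM at 22 months.

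**Figure D3:**
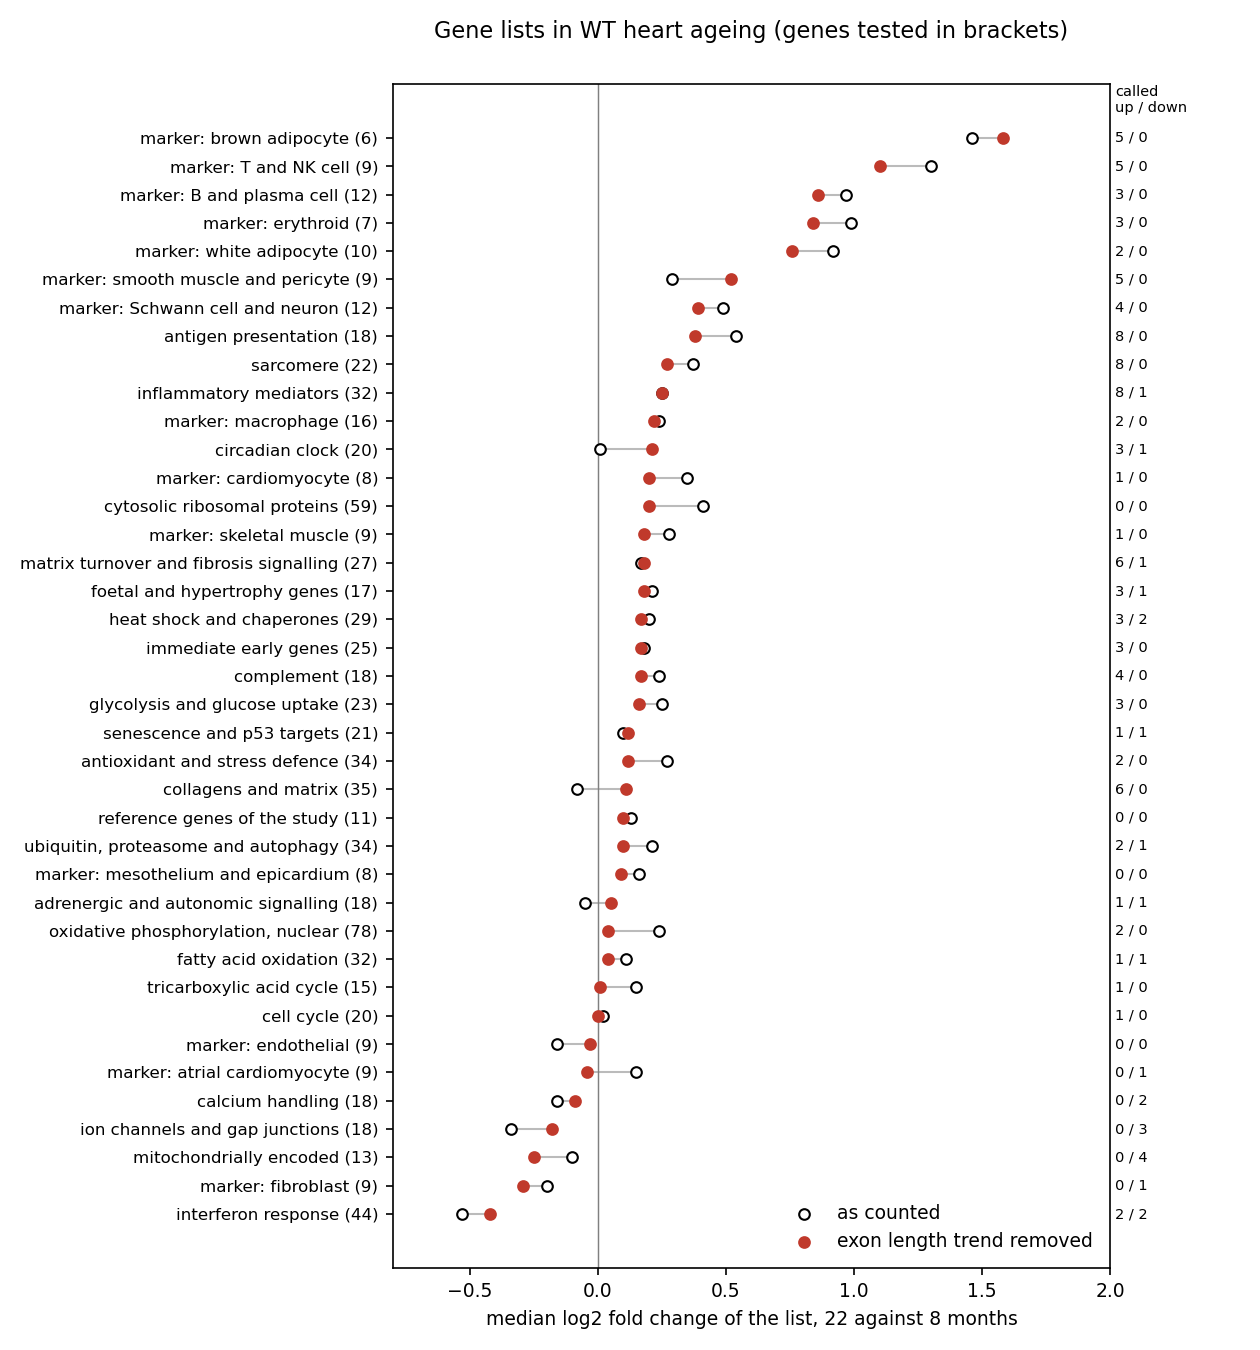
Median log2 fold change from 8 to 22 months (x axis) of each gene list with at least 5 genes tested, as counted (open points) and with the length trend removed (red points); the numbers at the right count the members called higher and lower without the trend. The short ribosomal protein genes move from 0.41 to 0.20 and oxidative phosphorylation from 0.24 to 0.04, whereas T and NK cell markers stay at 1.3 and 1.1 and antigen presentation at 0.54 and 0.38. The T and NK cell medians rest on the markers that passed the filter for low counts, which partly sets them.

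Many genes that present antigen were called higher at 22 months in both fits. Of 18 tested, 10 (55.6%) were called higher and 0 lower as counted, and 8 (44.4%) higher and 0 lower without the trend, against 8.6% and 6.01% of all genes called higher, with medians of 0.54 and 0.38. Without mouse 27, 14 were called higher without the trend and the median was 0.60. The class II genes, which present peptides from outside the cell to helper T cells and are made mainly by macrophages, dendritic cells and B cells, led the list. The starts of 3 of them carry the same pair of short elements known as the X and Y boxes, shown here because the class II genes moved together. The 120 bases before each start, from RefSeq on GRCm38.p6, are given in the direction of the gene, with matches to CTNGNAAC (X) and TGATTGG (Y) in capitals.

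H2-Eb1, chr17:34305747-34305866, plus strand: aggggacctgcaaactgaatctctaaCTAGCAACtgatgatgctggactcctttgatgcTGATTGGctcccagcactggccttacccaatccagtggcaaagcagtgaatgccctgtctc
H2-Aa, chr17:34287824-34287943, minus strand: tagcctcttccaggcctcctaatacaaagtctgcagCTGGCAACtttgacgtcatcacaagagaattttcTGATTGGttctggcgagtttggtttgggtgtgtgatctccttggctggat
H2-DMb1, chr17:34153071-34153190, plus strand: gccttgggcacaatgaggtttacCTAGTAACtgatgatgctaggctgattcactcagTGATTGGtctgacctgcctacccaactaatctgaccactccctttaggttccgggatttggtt

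In these 3 windows X began 94, 84 and 97 bases and Y 61, 50 and 63 bases before the start. On either strand of the 250 bases before each of 32851 starts, CTNGNAAC was found in 10.9%, TGATTGG in 7.23% and both in 0.819%. The class II gene H2-Ab1 and the transporter gene Tap2 had no window among these starts, and Cd74 was not searched. H2-D1, a class I gene, also held both motifs, and the windows of H2-DMa, H2-K1 and B2m held neither. These are matches of letters and no measure of binding.

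H2-Eb1 was at 15.2, 12.1, 15.3 and 14.1 CPM in mice 17 to 20 and at 45.6, 28.7 and 44.5 CPM in mice 26 to 28. Its log2 fold change was 1.48 as counted and 1.29 (standard error 0.156, adjusted p = 0.00129 by edgeR) without the trend. H2-Aa rose from 13.4 to 18.03 CPM to 41.5, 27.2 and 50 CPM, and H2-Ab1, its partner chain, from 8.51 to 11.9 CPM to 30.3, 19.7 and 31.9 CPM. Cd74, the invariant chain that loads class II molecules, was at 40.9 to 53.3 CPM and then at 137, 88.7 and 144 CPM. H2-DMa and H2-DMb1, which exchange peptides on class II, rose by 1.06 and 0.87 without the trend. In all 6 genes mouse 27 was the lowest of the older hearts, and with the lane as a covariate H2-DMb1 was not called (adjusted p = 0.133 by edgeR). The class I genes H2-K1, B2m and H2-D1 were at 0.41, 0.34 and 0.36 without the trend. Of these H2-K1 was called, a call lost without any 1 of the mice but 27 and with the lane as a covariate, and reads of H2-K1 and H2-D1 may be split between these near-identical genes. Tap2, the peptide transporter, rose by 0.59.

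The rise in class II genes was seen against hearts of 8 months and not against all younger hearts. H2-Eb1 was at 9.68 to 60.3 CPM at 4 weeks and at 13.3 to 66.4 CPM at 15 weeks. Some of those libraries held many T cell transcripts, since the summed level of 9 T and NK cell markers reached 125 CPM at 4 weeks and 895 CPM at 15 weeks, against 1.88 to 3.5 CPM at 8 months and 5.73 to 6.81 CPM at 22 months. Their part in the younger values was not tested.

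Some markers of T cells, B cells and neutrophils were called higher at 22 than at 8 months, but their sums were not above all younger hearts. The 3 neutrophil markers tested summed to 2.6 to 11.6 CPM at 4 weeks and 2.17 to 7.48 CPM at 15 weeks. At 8 months their sum was 1.12 to 1.68 CPM, and at 22 months 3.42 to 5.1 CPM. The B and plasma cell markers reached 192 CPM at 4 weeks and 379 CPM at 15 weeks. Of 14 T and NK cell markers, 9 passed the filter for low counts. Of these 9, 5 (55.6%) were called higher and 0 lower in either fit, with medians of 1.3 as counted and 1.1 without the trend. Cd3e, a chain of the T cell receptor complex, was at 0.0554, 0.191, 0.259 and 0.237 CPM at 8 months and at 0.631, 1.45 and 0.892 CPM at 22 months. Cd3d, Cd3g, Lck, the kinase of that receptor, and Nkg7, a granule protein of killer cells, were called at 1.38, 1.65, 1.48 and 1.10 without the trend. Of 12 B and plasma cell markers, 3 (25.0%) were called higher without the trend. Among them were Jchain, which joins secreted antibodies, from 0.636 to 3.71 CPM to 8.43, 6.92 and 4.61 CPM, and Pax5, the B cell regulator. The summed level of the B and plasma cell markers was 51.4 to 107 CPM at 8 months and 92.5 to 132 CPM at 22 months, which overlap, and 7 were called without mouse 20 and 1 without mouse 19 or 26. Of 9 neutrophil markers only 3 passed the filter, and these 3 were called higher in either fit. A gene this low passes more easily if it is high at 1 age, so the filter partly sets such counts. Below the filter, Ly6g and Camp were highest in a heart of 8 months, and Retnlg, Ngp, Mmp8 and Cxcr2 in 1 of 22 months. Of the T and NK cell markers below it, Gzmb was highest in a heart of 8 months. Cd8b1, Trac, Gzma and Prf1 were highest in 1 of 22 months. The B cell marker Cr2, also below it, was highest in a heart of 8 months. S100a9 was at 0.138, 0.143, 0.285 and 0.347 CPM at 8 months and at 1.36, 1.08 and 1.59 CPM at 22 months. Of 16 macrophage markers 2 (12.5%) were called higher without the trend. These were Csf1r, the growth factor receptor of macrophages, at 0.61 and Ccr2, which marks cells from blood monocytes, at 0.78. The other macrophage markers did not pass, the call of Ccr2 was lost without mouse 20 or 26, that of Nkg7 without mouse 17, 19, 26 or 28 and that of Jchain without mouse 19, 26 or 27. Of the macrophage markers 4 were called higher without mouse 27, and the summed level of the list was 186 to 197 CPM at 8 months and 186 to 242 CPM at 22 months. With the lane as a covariate Cd3e and Cd3g were still called, while Cd3d, Lck, Nkg7, Jchain, Pax5 and Ccr2 were not, at adjusted p-values by edgeR of 0.114, 0.225, 0.364, 0.151, 0.209 and 0.155.

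Of 32 inflammatory mediators, 8 (25.0%) were called higher and 1 (3.12%) lower without the trend, and 5 higher without mouse 26. Ccl5, a chemokine for T cells, was at 0.138, 0.334, 0.311 and 0.310 CPM at 8 months and at 1.54, 1.53 and 1.14 CPM at 22 months, 2.11 on the log2 scale. Ccl8, a chemokine for monocytes, rose by 1.60, S100a8, the partner of S100a9, by 1.71, and Saa3, an acute phase protein, by 2.11. The gene that fell was Tlr4, the receptor for bacterial lipopolysaccharide, at -0.45. With GC removed too Tlr4 was at -0.29 and not called, and with the lane as a covariate Tlr4, Ccl8 and Saa3 were not called, at adjusted p-values by edgeR of 0.184, 0.152 and 0.211. Of 18 complement genes, 4 (22.2%) were called higher and 0 lower, 2 higher without mouse 19. C4b, of the classical pathway, rose from 16.9 to 27.2 CPM to 32.8, 37.6 and 46.8 CPM (1.08), and C2, Cfb and Clu were called at 0.47, 0.58 and 0.39. With GC removed too Cfb and Clu were at 0.50 and 0.27 and not called, and with the lane as a covariate Cfb, Clu and C2 were not called. The calls of Cfb and Clu were also lost without any 1 of mice 18, 19 or 20, that of Cfb without mouse 26 or 28, that of Clu without mouse 27 and that of C2 without mouse 28.

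Few interferon response genes were called higher. Of 44 tested, 11 (25.0%) were called lower and 2 (4.55%) higher as counted, with a median of -0.53. Without the trend 2 (4.55%) were called in each direction, with a median of -0.42. One heart of 8 months, mouse 17, had a summed level of 1010 CPM, against 548 to 604 CPM in the other 3 and 521 to 663 CPM at 22 months. Without mouse 17 the median was -0.01 as counted and -0.09 without the trend, with 9 and 1 genes called lower and 8 and 6 called higher. Gbp7, a guanylate-binding protein, was at 24.6 CPM in mouse 17, at 13.1 to 14.2 CPM in the other hearts of 8 months and at 4.73 to 7.73 CPM at 22 months, and its call held without that mouse.

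Matrix genes differed between the fits. As counted, 3 of 35 collagen and matrix genes (8.57%) were called higher and 5 (14.3%) lower, near the shares of all genes. Without the trend, 6 (17.1%) were higher and 0 lower. Of these 6, Thbs4, a thrombospondin of stressed heart, rose from 3.74 to 5.52 CPM to 7.95, 8.18 and 6.64 CPM, 0.74 as counted and 0.84 without the trend, and Bgn, the proteoglycan biglycan, rose by 0.45 and 0.42. Thbs1, Tnxb, Tnc and Col18a1 were called only without the trend, at 0.52, 0.41, 0.66 and 0.40, and Tnxb, a tenascin, stood at -0.26 as counted. Fbn1, the microfibril protein fibrillin, fell by 0.52 as counted and was at 0.09 without the trend. With GC removed too, Bgn, Tnxb, Tnc and Col18a1 were at 0.37, 0.27, 0.59 and 0.25 and not called, and with the lane as a covariate Thbs1, Tnxb, Tnc and Col18a1 were not called, with Thbs1 at an adjusted p of 0.108 by edgeR. Without mouse 19, 3 were higher, and without mouse 26, 4. Calls were also lost without mouse 17, 19 or 27 for Bgn, 26 or 28 for Tnxb, 17, 19, 26 or 27 for Tnc and 19 or 26 for Col18a1. Of 27 genes of matrix turnover and fibrosis signalling, 6 (22.2%) were called higher and 1 (3.7%) lower without the trend. Without mouse 19, 20 or 27, 3 were higher. Ltbp2, which binds microfibrils, rose by 0.91 from 2.79 to 3.52 CPM to 5.199, 4.80 and 4.78 CPM. Mmp3, a matrix protease, had 4.14, 14.6 and 5.90 CPM at 22 months, and its call without the trend was lost without any 1 of mice 18, 19, 20 or 27 and with the lane as a covariate. Adamts1, another protease, fell by 0.46, and its call was lost without mouse 26 or 27. Of 9 fibroblast markers, 0 were called higher and 1 lower, Dpt, which codes for the matrix protein dermatopontin, at -0.39, a call lost without any 1 of mice 18, 19, 20, 26 or 27 and with the lane as a covariate.

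Of 9 smooth muscle and pericyte markers, 4 (44.4%) were called higher and 1 (11.1%) lower as counted. Without the trend 5 (55.6%) were called higher and 0 lower. Their summed level, 773 to 901 CPM at 8 months and 827 to 862 CPM at 22 months, overlapped between the ages. Cnn1, the smooth muscle protein calponin, was at 2.93 to 4.36 CPM at 8 months and at 9.69, 9.61 and 6.54 CPM at 22 months, 1.21 as counted and 1.19 without the trend. Tagln, another actin-binding protein of smooth muscle, was at 23.9 to 33.3 CPM and at 58.9, 54.9 and 47.2 CPM, 0.76 without the trend. Myh11, the smooth muscle myosin, rose by 0.92, and Cspg4 and Pdgfrb, of pericytes, by 0.82 and 0.52 without the trend. Acta2, smooth muscle actin, was at 73.8 to 140 CPM and at 131 to 174 CPM, and did not pass without the trend. Of 9 endothelial markers 0 were called without the trend by edgeR, with 1 higher and 3 lower at an unadjusted p under 0.05, and 1 in each direction as counted, of which Tek fell and Fabp4 rose.

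Some markers of brown fat, red cells and nerve were called higher at 22 months. Of 6 brown adipocyte markers, 5 (83.3%) were called higher and 0 lower without the trend. Ucp1, the uncoupling protein of brown fat, was at 5.29, 3.15, 8.62 and 1.06 CPM at 8 months and at 17.6, 16.4 and 45.7 CPM at 22 months, 2.46 on the log2 scale (standard error 0.567, adjusted p = 0.0188 by edgeR). Elovl3 and Otop1, also of brown fat, rose by 3.14 and 2.29, and Cidea and Dio2 by 0.53 and 0.87. With the lane as a covariate Ucp1 and Dio2 were not called, at adjusted p-values of 0.215 and 0.204 by edgeR, and Cidea, at 0.37, was under the fold limit. Fat on the great vessels can come with a heart, and how much was taken is not stated. In younger WT hearts Ucp1 ran from 2.74 to 14.6 CPM at 4 weeks and from 3.95 to 71.2 CPM at 15 weeks. In HdhQ150 hearts Ucp1 was at 7.99 to 295 CPM at 8 months and at 1.05 to 53.1 CPM at 22 months. Of 10 white adipocyte markers, 5 were called higher as counted and 2 without the trend, and 0 without the trend when mouse 28 was left out.

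Hba-a1 and Hba-a2, the alpha globin genes of red cells, which share most of their sequence, were at 569 to 694 and 437 to 529 CPM at 8 months. They were at 1056, 1441 and 2593 CPM and at 734.5, 1011 and 1901 CPM at 22 months. The 7 erythroid markers summed to 2030 to 2440 CPM at 8 months and to 3030, 4210 and 7920 CPM at 22 months, with 3 called higher without the trend. Their sum ran from 226 to 2480 CPM at 4 weeks and from 1760 to 12700 CPM at 15 weeks. Without mouse 28, the median of the list was 0.49 as counted and 0.31 without the trend, against 0.99 and 0.84 with it. With the lane as a covariate Hba-a1 and Hba-a2 were at 0.66 and 0.54 and not called, at adjusted p-values of 0.106 and 0.161 by edgeR, and without mouse 26 all 7 markers were called higher. Of 12 Schwann cell and neuron markers, 4 (33.3%) were called higher without the trend. Nefm and Nefl, the neurofilament chains of axons, were at 0.181 to 0.262 and 0.104 to 0.286 CPM at 8 months and at 0.669 to 0.984 and 0.595 to 0.714 CPM at 22 months, and Snap25, of synaptic vesicle release, rose by 2.17, a call lost without mouse 26 and with the lane as a covariate. Bmp10, a growth factor of the atria, went the other way, from 26.04, 33.2, 36.8 and 41.2 CPM to 4.16, 12.8 and 17.5 CPM, below all younger WT hearts, while the other 8 atrial markers were not called without the trend.

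Heat shock genes rose most in a single heart. Hspb1, a small heat shock protein, was at 117 to 160 CPM at 8 months and at 198, 1019 and 145 CPM at 22 months, so that mouse 27 set its mean. Cryab, the related crystallin, was at 999 to 1052 CPM and at 1296, 2927 and 1114 CPM. Both lost their calls as counted without mouse 27. Without the trend Cryab was not called, and the call of Hspb1 was lost without any 1 of mice 17, 18, 19, 20 or 27 and with the lane as a covariate. Of 29 heat shock and chaperone genes, 8 (27.6%) were called higher and 3 (10.3%) lower as counted and 3 (10.3%) higher and 2 (6.9%) lower without the trend, against 8.6% and 14.8%, and 6.01% and 6.83%, of all genes. When mouse 27 was left out, 2 were higher and 4 lower as counted, and 2 higher and 3 lower without the trend. Bag3, a cochaperone of the cardiomyocyte, rose from 160 to 192 CPM to 262, 273 and 239 CPM (0.54), and Dnajb1 and Dnaja1, partners of the Hsp70 proteins, fell by 0.54 and 0.57, of which Dnaja1 was not called with the lane as a covariate.

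Of 21 senescence and p53 target genes, 5 (23.8%) were called higher and 3 (14.3%) lower as counted, and 1 (4.76%) in each direction without the trend, which is near the share of all genes. Without mouse 20, 4 were called higher without the trend. Gdf15, a stress hormone, was at 0.941 to 1.45 CPM and at 2.32, 2.96 and 1.93 CPM (0.96), and Eda2r, a death receptor, fell by 0.54, but was not called when GC was removed too (-0.40, adjusted p = 0.107 by edgeR) or with the lane as a covariate (adjusted p = 0.237). Cdkn1a, the cell cycle inhibitor p21, was at 15.9 to 23.6 CPM and at 18.2, 49.3 and 24.6 CPM, and was not called without the trend. Of 20 clock genes, 3 (15.0%) were called higher and 1 (5.0%) lower without the trend, and 6 higher without mouse 27. Clock, the activator, fell by 0.93 as counted and by 0.41 without the trend, and Bhlhe41, a repressor, Usp2, a deubiquitinase under clock control, and Cry2, a repressor, were called higher at 0.73, 0.52 and 0.49. The call of Clock was lost without mouse 18 or 27 and that of Bhlhe41 without mouse 26. With GC removed too Clock and Cry2 were at -0.27 and 0.37, under the fold limit, and with the lane as a covariate Usp2 was not called (adjusted p = 0.118 by edgeR). The time of day of dissection is not given. The remaining lists, of tricarboxylic acid cycle, adrenergic signalling, proteasome and autophagy, antioxidant, immediate early, cell cycle, skeletal muscle, mesothelial, cartilage, thyroid, sex-linked and thymocyte genes and the reference genes of the study, had between 0 and 3 members called in either direction without the trend. These lists held 1 to 34 genes tested. Above the 6.01% of all genes called higher were thymocyte (2 of 2), cartilage (1 of 4) and immediate early genes (3 of 25). So were skeletal muscle (1 of 9) and tricarboxylic acid cycle genes (1 of 15). Without mouse 18 or 26, 0 thymocyte genes were called higher, and without mouse 19, 0 cartilage and 0 skeletal muscle genes. With 1 library left out, 1 to 3 immediate early genes were called higher.

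HdhQ150 hearts, sampled at the same ages in other animals, gave a set of libraries that shares none with the WT comparison. There edgeR called 969 of 15885 genes (6.1%) as counted and 172 (1.08%) without the trend, 39 higher (0.246%) and 133 lower (0.837%). Mouse 31 of 22 months stood apart, with a sum of 419 CPM for the T and NK cell markers against at most 14.3 CPM in the other 3. Its neutrophil markers summed to 103 CPM, against at most 15.9 CPM. Without mouse 31, 1083 genes were called without the trend, without mouse 30, 429, and without any 1 of the others (mice 22, 23, 24, 29 and 32) between 0 and 5. Of the 937 genes called lower in both fits in WT, 919 were tested and 117 (12.7%) were called lower in HdhQ150 hearts, and of the 586 called higher 579 were tested and 21 (3.63%) were called higher. Of both, 0 were called the opposite way. These were 88.6% of the 132 genes that fell and 56.8% of the 37 that rose in HdhQ150 hearts among those tested in both. The sign of the log2 fold change was shared for 865 of the 919 (94.1%) and for 511 of the 579 (88.3%), against 68.1% of 15130 genes tested in both. Across these genes Spearman's rho between the changes was 0.548 without the trend and 0.595 as counted, given as a description, since genes are not independent. The handling of an age group may be shared by both genotypes, so that age and handling cannot be told apart here either. Whether it was shared is not stated.

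**Figure D4:**
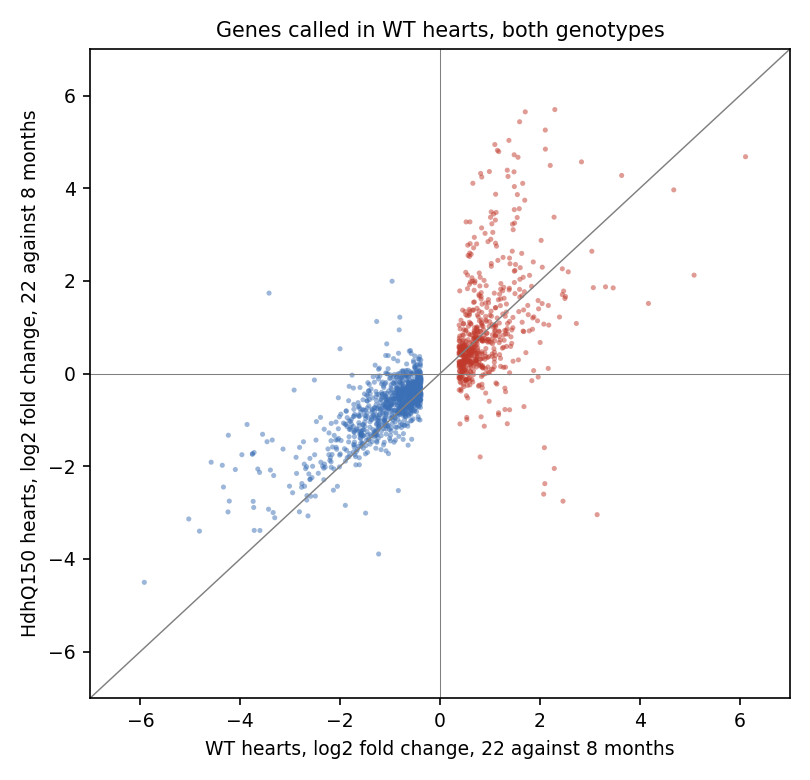
Log2 fold change from 8 to 22 months without the length trend in WT hearts (x axis) and HdhQ150 hearts (y axis) of the genes called in both fits in WT; red points rose and blue points fell in WT, the grey diagonal marks equal change, and 3 points lie outside the axes. The sign is shared for 94.1% of the blue and 88.3% of the red points, and some red points lie far above the diagonal, Ccl5 (5.26 in HdhQ150 hearts) and S100a9 (5.7) among them. In HdhQ150 mouse 31 of 22 months the neutrophil markers, S100a9 included, summed to 103 CPM, against at most 15.9 CPM in the others of that group. The part of mouse 31 in these changes was not tested.

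Hipk2, Cbl and Malat1 were also low in most HdhQ150 hearts of 22 months. Hipk2 was at 31.6 to 52.5 CPM at 8 months and at 4.24 to 13.7 CPM at 22 months, and Cbl at 5.59 to 7.81 CPM and 0.406 to 1.08 CPM. Malat1 was at 727 to 1520 CPM at 8 months and at 127 to 187 CPM in 3 hearts of 22 months, while mouse 30 had 2200 CPM. Hspb7 was at 779 to 821 CPM and at 926 to 2200 CPM. Whether ageing differed between the genotypes was tested by the interaction of age with genotype over 16137 genes. edgeR called 0 genes as counted and 0 without the trend, with 1262 and 937 below an unadjusted p of 0.05, while 2 and 3 were called by DESeq2. A p that misses the threshold does not show that the genotypes aged alike. Elovl3, Ucp1, Otop1 and Cidea had opposite signs in the 2 genotypes, at unadjusted interaction p-values of 0.0015, 0.00639, 0.00719 and 0.00862 from edgeR, and an adjusted p of 0.708 for each.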

How the data were processed

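RNA of 30 mouse hearts was sequenced as paired reads of 50 bases with 4 libraries per lane, and 7 WT libraries were compared here. The authors used Omicsoft and its OSA aligner with mouse genome B37, and deposited expected counts, not normalized, and FPKM values for 37620 Ensembl identifiers. Symbols were known for 32897, and the rest held 0.759% of counts. Of the non-zero counts 70.9% were whole (tolerance 1e-09). Whole counts had been planned for, and the values were rounded. All columns were used, and a deposited sample table was not. Columns were assigned to groups by the age and genotype in their headings, since no label holds the mouse numbers. That the mice are separate animals is taken from the headings.

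Genes were filtered by filterByExpr, scaled by TMM and tested in edgeR 4.0.16 (R 4.3.3) by quasi-likelihood. Adjusted p-values are Benjamini-Hochberg over all genes tested, and standard errors are the log2 fold change over the square root of F. Exon length was the count over FPKM and library total. The length trend was a loess curve (span 0.5) of each library's log2 CPM (prior count 2) minus the mean library, and entered edgeR as an offset. GC content and gene classes came from GENCODE vM21, by identifier. No pair of libraries of an age was a duplicate (lowest chi-square per degree of freedom 5.73). At these depths a gene at 1 CPM had many counts in each library, so that the spread between mice limits the precision, and below 0.3 CPM counting error does too.

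The ages, the 45 gene lists and the tests were chosen with earlier results of these data known, so lists are described by counts and medians, without a test. The genes named are, in each fit and direction, the 10 of at least 1 CPM with the smallest p whose libraries did not overlap, of each list the 4 with the highest CPM per kb and all those called, and the genes assayed by the study; of these a selection is printed, and some genes are not reported here. Alternatives were RLE factors, DESeq2 1.42.0, limma 3.58.1, other filters, thresholds, covariates and length corrections, fits with more libraries, and each library left out. Only the edgeR fits of the WT libraries, with and without the length curve, were tried on simulated counts. Python 3.11.15, numpy 2.4.6, pandas 2.3.3, scipy 1.17.1 and matplotlib 3.10.9 were used.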

Additional observations from a re-analysis of the deposited data

Results flagged for a closer look

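In groups of 4 libraries, 1 library was called far from the others where its gap to the nearest was above Dixon's 95% critical value for the group. Of 224 such groups of values examined, 24 held a far library, where chance gives about 1 in 20. Groups of 3, such as the WT hearts of 22 months, were not examined.

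Among WT hearts of 8 months, mouse 17 stood apart in interferon response genes. Their summed level was 1010 CPM, and Parp14 was at 47.5 CPM and Gbp7 at 24.6 CPM, both above the other 3, while Ccl5 was below them at 0.138 CPM. Mouse 18 was high for Neat1 (941 CPM), Nefl (0.286 CPM) and Snap25 (0.286 CPM) and low for Tead1 (57.7 CPM). Mouse 19 was high for Thbs1 (8.47 CPM) and Tmem252 (12.2 CPM) and low for C2 (4.09 CPM). Mouse 20 had the largest total count (52400000), 0.128 CPM of Gm13610 where the others had 0, and low values for Ndufa11 (201 CPM) and for the summed ubiquitin, proteasome and autophagy genes (5630 CPM).

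In the groups used to place the values, mouse 30 of the HdhQ150 hearts of 22 months was high for Malat1 (2200 CPM), Tead1 (29.1 CPM) and Hipk2 (13.7 CPM). Among WT hearts of 15 weeks, mouse 3 was high for Tead1 (25 CPM) and mouse 1 for Ucp1 (71.2 CPM). At 4 weeks, mouse 11 was high for Malat1 (852 CPM) and Myh7 (13600 CPM), and mouse 12 for Prom2 (0.636 CPM) and H2-Eb1 (60.3 CPM).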

How the results depend on the processing

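No paired analysis was possible because the column headings carry none of the replicate numbers of the labels. They do carry a number read here as the lane, and fits with it are given below. With the lane as a covariate the age effect rests on mice 17, 18, 26 and 27 alone. The comparison of 22 with 8 months called 3556 genes as counted and 1955 without the length trend. As counted, limma on log2(FPKM + 1) called 1912, no fold limit 6404, and a fit with all 30 libraries 2329. Without the trend, no fold limit gave 3751, all 30 libraries 752, the 14 WT and HdhQ150 libraries 945, the lane as a covariate 1262 and, chosen after seeing the data, lanes 4 and 6 alone 1138. RLE factors, DESeq2, limma-voom, other filters, a threshold of 0.05, sex covariates, a straight line for length and the removal of GC content kept the counts within 1.5 times, with 1598 calls for the last. Leaving out 1 library at a time gave 2763 to 4489 calls as counted and 1494 to 2346 without the trend, and a difference in length slope of -0.216 to -0.151. Of the 45 lists 34 lay above the median of all genes in both fits, and 32 to 35 with 1 library left out. In HdhQ150 hearts, DESeq2 called 2130 genes as counted and 1193 without the trend, and leaving out 1 library gave 0 to 1896 and 0 to 1083. For the interaction DESeq2 called 2 and 3 genes, where edgeR called 0. Within either fit, no named gene that was called reversed its sign under these settings. Between the fit as counted and that without the trend some did, such as Ttn, Htt, Fbn1, Tnxb and Nfia. The causes were not tested. Depth limits genes below about 0.3 CPM, such as Cd3e, Pax5 and Snap25 at 8 months.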
